A study of Mus musculus with 42 samples.

Results

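The circadian clock genes and their output factors in mouse liver are described here through 10 genes: Arntl (also called Bmal1), Per1, Per2, Per3, Cry1, Nr1d1, Nr1d2, Dbp, Tef and Hlf. They were taken by name, as clock components and as transcription factors directly under clock control, and each was measured by 1 probe set carrying its symbol alone. They are 10 of 17989 genes measured. The liver arrays came from wild-type male C3HeB/FeJ mice, an inbred strain, that were singly housed and fed at random. The 42 arrays comprised 18 from controls on a low-fat diet for at most 21 days, aged 15 to 17 weeks, and 8 each after 7 days (15 weeks old), 14 days (16 weeks old) and 21 days (17 weeks old) of a high-fat diet (HFD), so age and time on HFD moved together. The study's title places early changes of membrane lipids and mitochondrial membrane proteins ahead of hepatic insulin resistance, and the question here is how the clock genes behaved between groups and from array to array. No label ties an array number to an animal, so the p-values reflect sample-to-sample spread, some of it possibly technical. The labels also give no hour of sampling.

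The clock of a mammalian cell is a transcriptional loop. The protein of Arntl pairs with CLOCK, binds E-boxes and switches on the Per and Cry genes, whose proteins then block that pair. It also switches on Nr1d1 and Nr1d2, whose proteins REV-ERB-alpha and REV-ERB-beta repress Arntl through RORE sites, and the factors DBP, TEF and HLF, which pass the rhythm on through D-boxes. In the livers of mice kept on a regular light cycle, Arntl transcripts are known to peak close to the time at which Dbp transcripts are lowest.

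Parts of the RefSeq promoters of the members (mouse build GRCm38.p6, from 250 bases before to 50 after a transcript start) are shown because they carry the letters through which the loop works. Of the 10 genes, 9 had an entry, with 12 windows between them. Capitals mark a motif, or its reverse complement, found by a search of both strands for the E-box CACGTG, the variant named E-prime-box with the letters CACGTT, the D-box TTANGTAA and the RORE core TAGGTCA. These motifs did not overlap one another in the windows. The stretches run 5′ to 3′ on the strand of the gene.

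Arntl, RORE core, 31 bases after the start, chr7:113207530-113207558, plus strand: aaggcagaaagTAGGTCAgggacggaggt
Per1, E-box, position -166 from the start, chr11:69098757-69098814, plus strand: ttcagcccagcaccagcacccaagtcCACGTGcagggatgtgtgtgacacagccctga
Cry1, E-prime-box on the opposite strand at position -79 and E-box at position -60, chr10:85185083-85185143, minus strand: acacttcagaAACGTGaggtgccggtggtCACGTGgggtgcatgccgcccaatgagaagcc
Nr1d1, E-prime-box on the opposite strand, position -28, chr11:98775378-98775431, minus strand: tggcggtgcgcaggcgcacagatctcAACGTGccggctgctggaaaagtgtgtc
Tef, E-box, position -127 of its first window, chr15:81802520-81802577, plus strand: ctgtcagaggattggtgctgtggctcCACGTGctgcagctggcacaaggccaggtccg
Per3, D-boxes at positions -205 and -158, chr4:151044806-151044880, minus strand: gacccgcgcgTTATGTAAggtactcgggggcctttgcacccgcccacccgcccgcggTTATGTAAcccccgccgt

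Of 32851 promoter windows of the same length in the RefSeq table, 7.15% held an E-box, 4.68% an E-prime-box, 2.32% a D-box and 2.61% a RORE core. The window of Per3 held 2 D-boxes with 39 bases between them, and 0.0822% of all windows held 2 or more. Tef had a second window with an E-box at position -138. Arntl and Per1 also had 2 windows each. The RORE core of Arntl lay in its second window and the E-box of Per1 in its first, and their other windows held no motif. The windows of Nr1d2, Dbp and Hlf held none of the 4 motifs. A match is a description of these letters, not evidence of a bound site.

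Values are RMA log2 signals, on which a difference of 1 is a 2-fold change, and the levels of different probe sets are not set against each other. The SE of a difference rests on how many arrays there are and how far they spread within groups, as arrays have no sequencing depth. A level near background is a separate limit. At 7 days the SE was 0.10 for Per1, with a mean of 3.23, and 0.29 for Dbp, with a mean of 7.27. The 95th percentile of 929 olfactory receptor genes, 2.86, served as a background level, and every member had a group mean above it in each group. Of 10 listed hepatocyte markers 9 were measured, and all 9 lay above background, with array means of 12.3 to 12.8. Of the pancreatic acinar markers 12 of 16 were measured and all 12 lay above background. Their mean ran from 3.43 to 8.65 on controls, 3.55 to 9.58 at 7 days, 3.46 to 9.59 at 14 days and 3.37 to 6.43 at 21 days. Array means of the markers of other liver cells ran from 4.97 to 5.95 (Kupffer cells, 10 of 10 measured), 5.56 to 6.54 (endothelium, 7 of 7), 4.63 to 5.02 (stellate cells, 6 of 7), 3.19 to 3.77 (bile duct, 4 of 6) and 2.79 to 3.15 (lymphocytes, 7 of 7, of which 2 lay above background). Of the 10 Kupffer cell markers 3 were called higher at 7 days (limma adjusted p under 0.05), where 1.40% of all genes were called. At 14 and 21 days 0 of 10 were called, with 0.667% and 0.700% of all genes. In whole liver, fewer cells of a type and less RNA per cell cannot be told apart. The word reanalysis stands in the titles of all control and 21-day arrays and of no 7-day or 14-day array, so a batch that follows it cannot be told apart from the diet in the 7-day and 14-day comparisons. All 3 comparisons with controls share the same 18 control arrays.

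No member passed the test between HFD and control at any time. With limma and a Benjamini-Hochberg adjusted p under 0.05 over all 17989 genes, 0 of 10 members were called at 7 days, where 1.40% of all genes were called, 0 of 10 at 14 days (0.667% of all genes) and 0 of 10 at 21 days (0.700%). At an unadjusted p under 0.05 there were 2 members at each time, Per1 and Per2 at 7 days, Arntl and Dbp at 14 days, and Per2 and Per3 at 21 days. The share of all genes under that p was 9.28%, 6.0% and 6.66%. The difference from control was above 0 for 9, 9 and 8 of the 10 members at 7, 14 and 21 days, with medians of 0.17, 0.18 and 0.19 on the log2 scale. Over all genes the medians were -0.01, -0.00 and 0.01. Among the 3 HFD times the limma F test called 0 members, each with an adjusted p of 1.0, and 0.00556% of all genes, which is 1 gene.

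**Figure D1:**
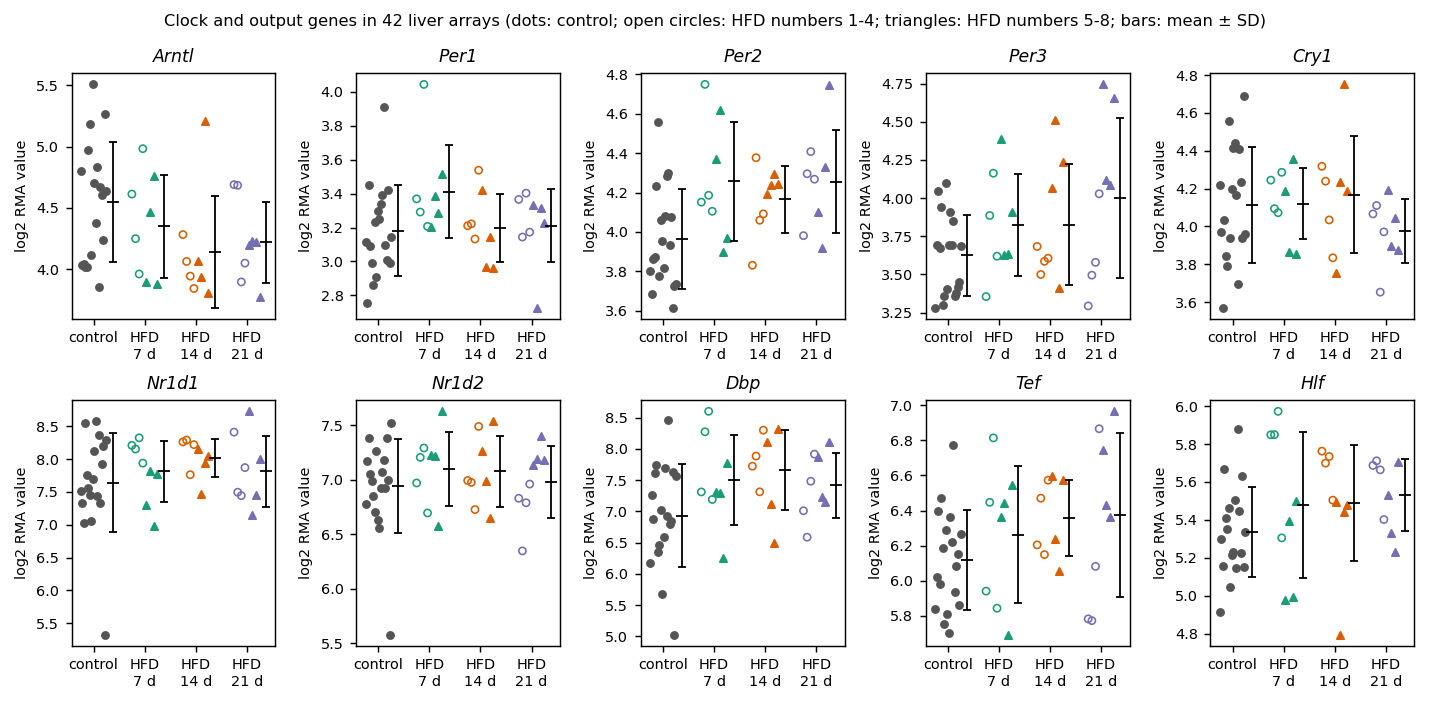
Log2 RMA values of the 10 genes on each of 42 arrays, 1 panel per gene, with control arrays as dots, HFD arrays numbered 1 to 4 as open circles and those numbered 5 to 8 as triangles. Bars give the mean and SD of each group. In every panel the HFD groups overlap the controls, and 1 control (number 17) lies alone at the bottom of the Nr1d1 and Nr1d2 panels, at 5.33 and 5.58.

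Arntl, the activator of the loop (probe set 10556463), ran from 3.85 to 5.51 on the 18 controls, with a median of 4.62. At 7 days it ran from 3.88 to 4.98 (median 4.36), at 14 days from 3.80 to 5.21 (median 4.0) and at 21 days from 3.78 to 4.69 (median 4.21). The groups overlapped throughout, although 5, 7 and 6 of 8 arrays lay below the control mean of 4.55 ± 0.49 (SD, n = 18). The differences of the means were -0.20 at 7 days, -0.41 at 14 days and -0.33 at 21 days, each with an SE of 0.18. The largest, at 14 days, was a 1.33-fold lower mean with 95% limits for HFD over control of 0.587 to 0.970, an unadjusted p of 0.0286 and a limma adjusted p of 0.716. A single 14-day array, number 7, stood at 5.21 while the other 7 reached 4.28 at most. Without it the difference was -0.56.

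The Per genes encode the repressors that, with the CRY proteins, close the loop, and Per1 and Per2 also answer directly to hormones and temperature. Per1 (probe set 10377439) ran from 2.76 to 3.91 on controls (median 3.13), 3.20 to 4.04 at 7 days (median 3.33), 2.96 to 3.54 at 14 days (median 3.18) and 2.73 to 3.40 at 21 days (median 3.27). All 8 of the 7-day arrays lay above the control mean of 3.18, within the range of the controls except for 1 array at 4.04. The 7-day mean was 0.23 higher (SE 0.10, unadjusted p = 0.0312, limma adjusted p = 0.461), and at 14 and 21 days the differences were 0.02 and 0.03.

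Per2 (probe set 10356601) ran from 3.62 to 4.56 on controls, with a median of 3.90. It ran from 3.90 to 4.75 at 7 days (median 4.17), 3.83 to 4.38 at 14 days (median 4.22) and 3.92 to 4.75 at 21 days (median 4.28). In each HFD group 7 of 8 arrays lay above the control mean of 3.96 ± 0.25 (SD, n = 18). The differences were 0.29 at 7 days (SE 0.10, limma adjusted p = 0.240), 0.20 at 14 days (adjusted p = 0.878) and 0.29 at 21 days (adjusted p = 0.400). At 7 days this was a 1.22-fold higher mean, with 95% limits of 1.06 to 1.42, and these were the smallest adjusted p-values of any member at 7 and at 21 days. When arrays were weighted by their quality in limma, the 7-day difference was 0.34 and passed, with an adjusted p of 0.0429, in a fit that called 3.36% of all genes.

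Per3 (probe set 10518781), the member of the family that is not needed for the rhythm itself, ran from 3.28 to 4.10 on controls (median 3.68), 3.36 to 4.39 at 7 days (median 3.76) and 3.41 to 4.51 at 14 days (median 3.64). At 21 days it ran from 3.29 to 4.74 (median 4.06), and 3 of 8 arrays lay above every control. The 21-day difference was 0.38 (SE 0.15, unadjusted p = 0.0144, limma adjusted p = 0.516), against 0.20 at both 7 and 14 days. That difference was not alike on both sets of array numbers: with the 21-day arrays numbered 5 to 8 alone it was 0.78 (adjusted p = 0.0075, in a fit that called 2.16% of all genes), and with those numbered 1 to 4 it was -0.03.

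Cry1 (probe set 10371400), the longest-delayed repressor of the loop, ran from 3.57 to 4.69 on controls (median 4.10), 3.85 to 4.36 at 7 days (median 4.14), 3.75 to 4.75 at 14 days (median 4.21) and 3.65 to 4.19 at 21 days (median 4.01). The groups overlapped almost wholly. The differences from control were 0.01, 0.05 and -0.14, each with an SE of 0.11, and 7 of 8 arrays at 21 days lay below the control mean of 4.11.

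Nr1d1 and Nr1d2, the repressors of Arntl, differed little in their means. Nr1d1 (probe set 10390691) ran from 5.33 to 8.58 on controls (median 7.63), 6.98 to 8.32 at 7 days (median 7.88), 7.47 to 8.29 at 14 days (median 8.10) and 7.14 to 8.73 at 21 days (median 7.68). Its differences from control were 0.17, 0.38 and 0.18, each with an SE of 0.24. Without control number 17 they were 0.04, 0.24 and 0.04. Nr1d2 (probe set 10417734) ran from 5.58 to 7.52 on controls (median 6.99), 6.58 to 7.63 at 7 days (median 7.21), 6.65 to 7.54 at 14 days (median 6.99) and 6.35 to 7.40 at 21 days (median 7.05). Its differences were 0.16, 0.14 and 0.04, each with an SE of 0.15, and without control number 17 they were 0.08, 0.06 and -0.04. For both genes the ranges of the HFD groups lay largely inside that of the controls.

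Dbp, the output factor with the widest swing in liver (probe set 10553092), ran from 5.03 to 8.46 on controls, with a median of 6.90 and a mean of 6.93 ± 0.82 (SD, n = 18). It ran from 6.25 to 8.60 at 7 days (median 7.31), 6.49 to 8.33 at 14 days (median 7.81) and 6.59 to 8.11 at 21 days (median 7.36). In each HFD group 7 of 8 arrays lay above the control mean, and the groups overlapped. The means were 1.49-fold, 1.66-fold and 1.40-fold higher at 7, 14 and 21 days, which are log2 differences of 0.57, 0.73 and 0.49, each with an SE of 0.29. The limma adjusted p-values were 0.552, 0.57 and 0.858, and the 95% limits of the fold at 14 days were 1.11 to 2.48. At 7 days the arrays numbered 1 to 4 differed from control by 0.92 and those numbered 5 to 8 by 0.23, neither of which passed.

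Tef and Hlf, which encode the relatives of DBP, moved over smaller ranges. Tef (probe set 10425601) ran from 5.70 to 6.77 on controls (median 6.12), 5.69 to 6.81 at 7 days (median 6.40), 6.06 to 6.60 at 14 days (median 6.35) and 5.77 to 6.96 at 21 days (median 6.40). Hlf (probe set 10389786) ran from 4.91 to 5.88 on controls (median 5.32), 4.98 to 5.97 at 7 days (median 5.45), 4.79 to 5.76 at 14 days (median 5.50) and 5.23 to 5.71 at 21 days (median 5.60). The differences from control were 0.14, 0.24 and 0.26 for Tef (SE 0.14) and 0.14, 0.15 and 0.20 for Hlf (SE 0.11), and no group stood clear of the controls.

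**Figure D2:**
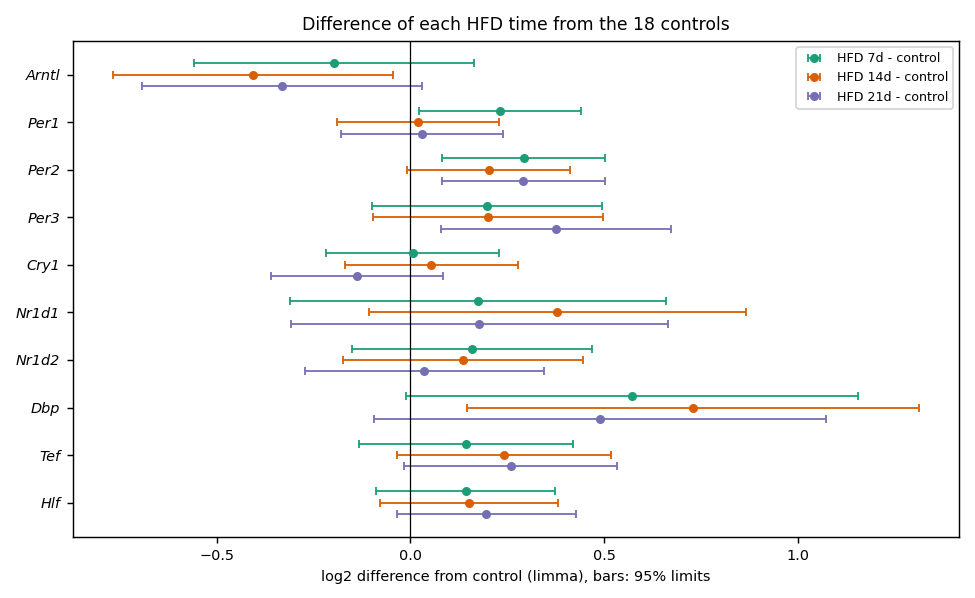
Differences of the group means from the 18 controls on the log2 scale for the 10 genes at 7, 14 and 21 days of HFD, with 95% limits from limma that are not adjusted for the number of genes. Arntl is below 0 at all 3 times and Dbp above 0 at all 3, from 0.49 to 0.73, and most limits cross 0.

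Other genes of the pathway, listed with earlier results of these data known, were counted in the same way. Of 14 further core clock genes and regulators 7 were measured, Clock, Cry2, Rora, Bhlhe41, Ciart, Csnk1e and Btrc, and 0 of 7 were called at any time. The widest of their differences were 0.39 for Cry2 at 7 days, a repressor related to Cry1, and -0.43 for Clock at 21 days, the partner of Arntl, with limma adjusted p-values of 0.424 and 0.310. Of 14 measured rhythmic liver outputs 3 rose at 7 days, where 1.40% of all genes were called. These were Lpin1, a phosphatidate phosphatase (0.88, SE 0.23), Gys2, the liver glycogen synthase (0.59, SE 0.15) and Rgs16, a regulator of G-protein signalling (2.74, SE 0.38). Rgs16 also rose at 14 days (2.77) and 21 days (2.24), as the 1 output called at each of those times. The share of all genes called then was 0.667% and 0.700%, and 0 outputs were called lower at any time. The medians of the outputs were 0.15, 0.03 and 0.02.

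Lists that read feeding, stress hormones and body temperature were set beside the clock because those signals are known to drive rhythms in liver. Their counts are to be read against the share of all genes called, 1.40% at 7 days, 0.667% at 14 days and 0.700% at 21 days. Of 10 measured fasting and feeding genes, 2 rose at 7 days, Angptl4, an inhibitor of lipoprotein lipase (0.57), and Pklr, the liver pyruvate kinase (0.74). Angptl4 alone rose at 14 and 21 days, by 0.45 and 0.49. Of 9 measured systemically driven rhythmic genes, mostly chaperones, 1 rose at 7 days, Hspa8 (0.41, limma adjusted p = 0.0467), and 0 later. Of 10 measured glucocorticoid-responsive genes 1 rose at 7 days, Lcn2, an acute-phase protein (1.12), and 0 later. No gene of these lists was called lower at any time. Without regard to calls, 7 of the 10 glucocorticoid-responsive genes lay below 0 and 3 above at each time. Their medians were -0.13, -0.07 and -0.07, and the lowest was Mt2, at -0.94, -1.04 and -1.22 (SE 0.55 each). Mt2 was not alike on both sets of array numbers. Its mean was 5.45 on HFD arrays numbered 1 to 4 and 6.97 on those numbered 5 to 8, against 7.27 on controls.

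Several members had a wide spread inside the groups. The SD within groups, pooled over the 4 groups, was 0.73 for Dbp, larger than for 99.6% of all genes. It was 0.60 for Nr1d1 (99.3%), 0.45 for Arntl (96.9%), 0.38 for Nr1d2 (93.1%) and 0.36 for Per3 (91.7%). For Tef, Hlf, Cry1, Per2 and Per1 it was 0.34, 0.28, 0.27, 0.25 and 0.25. From the lowest to the highest control array Dbp spanned 10.8-fold, Nr1d1 9.56-fold and Arntl 3.14-fold. Control number 17 set the low end for Dbp and Nr1d1, and without it they spanned 6.88-fold and 2.95-fold. These spreads are a description and carry no test.

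Array by array, Arntl and Dbp lay on opposite sides of their group means on 36 of 42 arrays, on 16 of 18 controls, 7 of 8 arrays at 7 days, 5 of 8 at 14 days and 8 of 8 at 21 days. Control number 13 had the lowest Arntl of the controls, 3.85, and the highest Dbp, 8.46. Control number 9 had the highest Arntl, 5.51, and a Dbp of 5.68, lower than every control but number 17. At 14 days the array with the highest Arntl (number 7, 5.21) had the lowest Dbp, 6.49, and the array with the lowest Arntl (number 8, 3.80) had the highest Dbp, 8.33.

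The correlation of the pair over 42 arrays, after each gene's group means were removed, was r = -0.78 and rho = -0.74, with a permutation p of 1e-05 for each, the smallest the 100000 resamples can give, and an adjusted p of 3.67e-05 over the 11 pairs tested. Within the 18 controls r was -0.83. Within 8 arrays it was -0.62 at 7 days, -0.74 at 14 days and -0.83 at 21 days, with exact permutation p-values of 0.0989, 0.0383 and 0.0113, which became 0.181, 0.105 and 0.0622 after adjustment over the pairs. By rho the adjusted permutation p-values were 0.131, 0.396 and 0.0398, so only the 21-day rho of -0.88 passed. Without the 2 arrays farthest from the median of Arntl r was -0.73, and leaving out any 1 array gave -0.80 to -0.75. With the means of the number ranges (1 to 4 and 5 to 8, or 1 to 9 and 10 to 18 for controls) removed as well, it was -0.83. The acinar marker mean was tried as a covariate of both genes and left r at -0.78.

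Dbp had the lowest correlation with Arntl of all 17988 other genes, and Arntl the lowest with Dbp. The second rank was close, at -0.7780 against -0.7777 for Elovl3, and without control number 17 Elovl3 was lower (-0.784 against -0.763). After Dbp, the lowest values with Arntl were those of Upp2 (uridine phosphorylase, -0.70), Tef (-0.67), Usp2 (a deubiquitinase, -0.66) and Nr1d2 (-0.64). The highest were Elovl3, a fatty acid elongase (0.76), Slc30a10, a manganese transporter (0.69), Agpat2, an acyltransferase of triglyceride synthesis (0.68), Pdk4, a kinase of pyruvate dehydrogenase (0.68) and Dexi (0.68). With Dbp the highest were Mknk2, a protein kinase (0.78), Tef (0.75), Bach1, a repressor of antioxidant genes (0.74), Nr1d2 (0.71) and Epha1, an ephrin receptor (0.70). The lowest after Arntl were Elovl3 (-0.78), Insig2, a brake on sterol synthesis (-0.72), Hacl1, a peroxisomal lyase (-0.65) and Kti12 (-0.63). These likenesses are over the same 42 arrays and carry no test, and Upp2, Usp2, Elovl3 and Insig2 also stood in the list of rhythmic outputs.

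**Figure D3:**
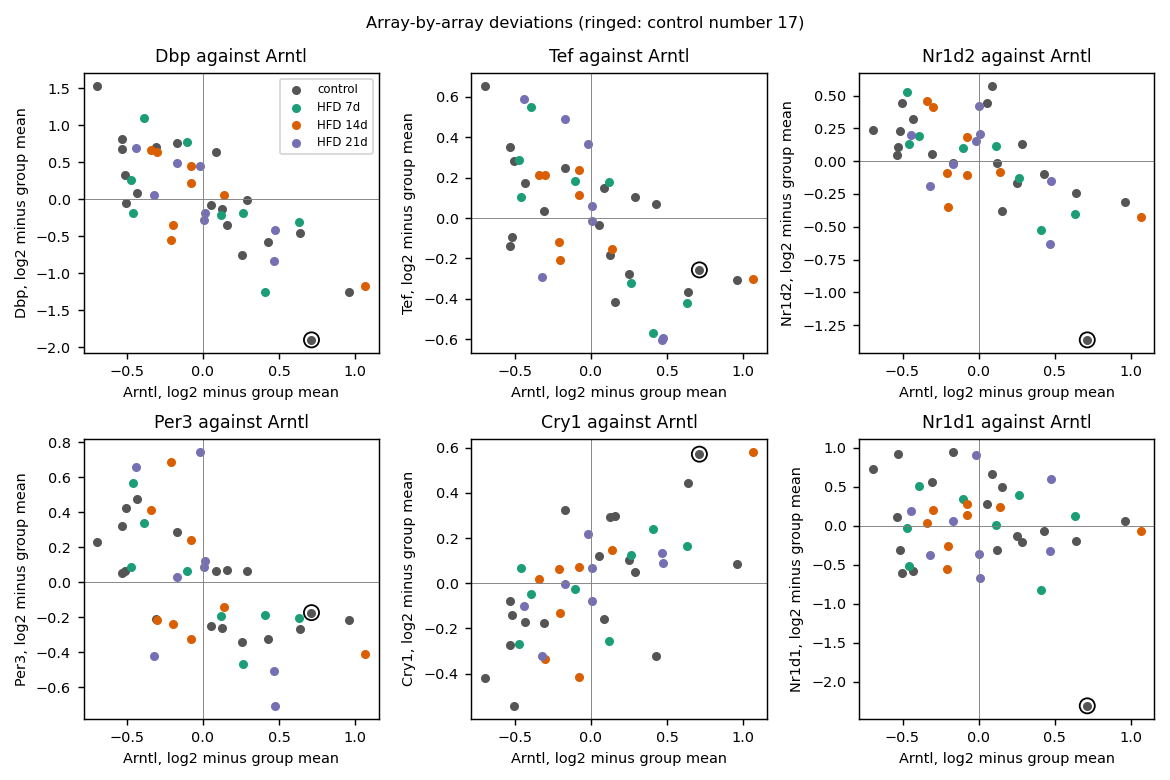
Deviations from the group mean, on the log2 scale, of Dbp, Tef, Nr1d2, Per3, Cry1 and Nr1d1 (vertical) against that of Arntl (horizontal) on 42 arrays, coloured by group, with control number 17 ringed. Dbp falls along the diagonal from upper left to lower right (r = -0.78), Cry1 runs the other way (0.66), and Nr1d1 shows a wide cloud (-0.23).

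Among the other pairs tested, Tef (r = -0.67, rho = -0.68) and Per3 (r = -0.60, rho = -0.60) ran against Arntl and Cry1 ran with it (r = 0.66, rho = 0.67), with permutation p-values adjusted over the 11 pairs of 3.67e-05, 4.40e-05 and 7.33e-05 for r. Within the 3 HFD groups of 8 these correlations ran from -0.85 to -0.63 for Tef, -0.80 to -0.49 for Per3 and 0.58 to 0.78 for Cry1. None of them passed by an exact permutation test after adjustment. Per1, Per2 and Hlf lay nearer to 0, at -0.19, -0.14 and -0.20, pairs that were not among those tested. For Nr1d1 the relation to Arntl was not resolved (r = -0.23, rho = -0.11, permutation p = 0.170, adjusted p = 0.187), and it came to 0.02 at 14 days and 0.11 at 21 days. With quantile normalization it passed, at r = -0.34 (adjusted permutation p = 0.0466), with rho = -0.23. In the deposited values r was -0.08 without control number 17 (permutation p = 0.612). It was also -0.08 without the 2 arrays farthest from the median of Arntl, which were controls number 9 and 17.

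Among the genes that share a phase, Dbp and Tef went together most closely (r = 0.75, rho = 0.78, permutation p = 1e-05, the smallest the resamples can give). Within groups r was 0.72 for controls, 0.85 at 7 days, 0.91 at 14 days and 0.90 at 21 days. Nr1d1 and Dbp had r = 0.66 and rho = 0.57 (adjusted permutation p = 4.40e-05 for r), and 0.55 without control number 17. Dbp and Hlf had r = 0.54 and rho = 0.52 (adjusted permutation p = 0.000471), with 0.79 at 7 days, 0.30 at 14 days and -0.04 at 21 days. Dbp and Per3 had r = 0.46 and rho = 0.48 (adjusted permutation p = 0.00194). Per1 and Per2 showed no relation that could be resolved (r = 0.04, rho = 0.01, permutation p = 0.794). Per1 lay close to the background level of 2.86, with a mean of 3.23 and lowest values of 2.76 on controls and 2.73 at 21 days. This limits what its correlations can show.

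Over all 45 pairs of members, 28 correlations were above 0 and 17 below. Arntl and Cry1 were each below 0 with 8 of the 9 other members and above 0 with each other. Nr1d2 stood with the output genes Dbp (0.71, and 0.62 without control number 17) and Tef (0.64), but not with Hlf (0.075). With Cry1 it was at -0.61. Per3 went with Tef (0.67) more than with its relatives Per1 (0.03) and Per2 (0.18), differences that were not tested. Hlf went with Nr1d1 (0.56) and Per1 (0.47) and lay at -0.23 with Per3. The means of the number ranges were not removed from these values. On the HFD arrays numbered 5 to 8 Per3 was higher (0.47) and Hlf lower (-0.36), and the part of that here was not tested.

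**Figure D4:**
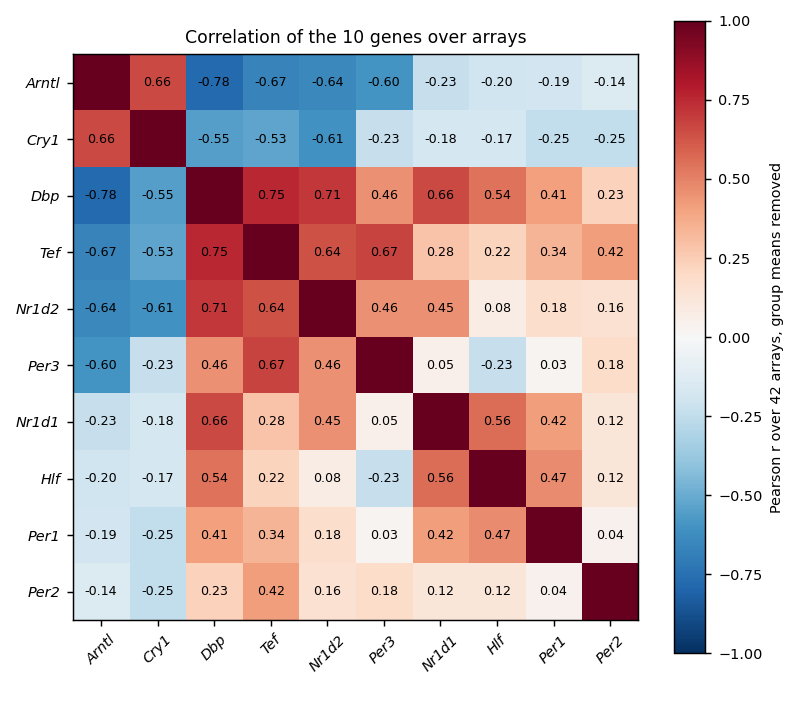
Pearson correlations between the 10 genes over 42 arrays after removal of group means, with red above 0 and blue below 0, from -1 to 1. Arntl and Cry1 form 1 red block (0.66) and are blue against the other 8 genes, among which Dbp, Tef and Nr1d2 are at 0.64 to 0.75.

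Of the further core clock genes, Ciart, a repressor of the loop, and Bhlhe41, a repressor that binds E-boxes, had correlations of -0.58 and -0.48 with Arntl and 0.65 and 0.67 with Dbp. Cry2 was at -0.06 with Arntl and 0.48 with Dbp. Clock, the partner of Arntl, was at 0.13 and -0.22, and Rora, an activator of Arntl through RORE sites, at -0.16 and 0.14. Without control number 17 Clock was at 0.24 and -0.42, Rora at -0.08 and 0.0036, and Cry2 at 0.01 and 0.41. Ciart was then at -0.57 and 0.67, and Bhlhe41 at -0.47 and 0.69. Bhlhe41 had a mean of 2.91, close to the background level.

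**Figure D5:**
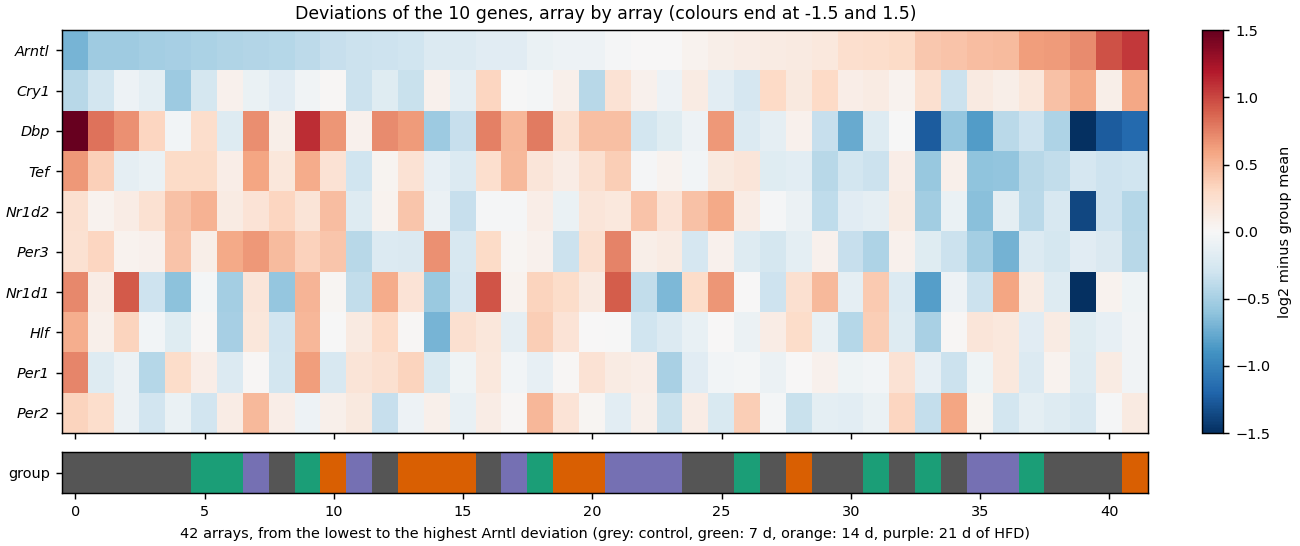
Deviations of the 10 genes from their group means on 42 arrays ordered from the lowest to the highest Arntl, in log2 units with colours ending at -1.5 and 1.5, and the group of each array in the strip below. Cry1 follows Arntl, and Dbp, Tef and Nr1d2 go the other way. Each group is centred on its own mean, so the order does not compare the groups.

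Control number 17 stood apart. Its Nr1d1 value of 5.33, Nr1d2 value of 5.58 and Dbp value of 5.03 lay below those of all 17 other controls, whose lowest values were 7.02, 6.56 and 5.68. These were 5.46-fold, 2.72-fold and 4.03-fold lower than the mean of the other 17. Its Cry1 value of 4.69 was above every other control, and its Arntl value of 5.26 was above 16 of them. Its Per1, Per2, Per3, Tef and Hlf values lay inside the range of the other controls, from 0.68 (Per3) to 1.01 (Per2) SDs below their mean. Its acinar marker mean was 6.5, and the part of that in its clock values was not tested. Without this array the SD of the controls was 0.50 in place of 0.76 for Nr1d1, 0.27 in place of 0.43 for Nr1d2 and 0.69 in place of 0.82 for Dbp.

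Among the 11 pairs tested over all groups, this array decided 1 relation. Nr1d1 and Nr1d2 had r = 0.45 with an adjusted permutation p of 0.0181, but rho = 0.16 (adjusted permutation p = 0.404). Without control number 17 r was 0.11 (permutation p = 0.486), so it rests on that array. Without the 2 arrays farthest from the median of Nr1d1, number 17 among them, r was 0.09. The relation of Arntl and Dbp was -0.76 without number 17.

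Numbers within the HFD groups separated 2 members. The arrays numbered 5 to 8 are known from earlier results to stand apart from those numbered 1 to 4, and the labels do not say what the numbers mean. Over the 24 HFD arrays, with HFD time in the fit, Per3 was 0.47 higher on numbers 5 to 8 (SE 0.13, 1.38-fold, limma adjusted p = 0.0111) and Hlf was lower, at -0.36 (SE 0.09, 1.28-fold, adjusted p = 0.00772). The 2 members called are to be read against 22.7% of all genes called by the same test, 10.5% higher and 12.2% lower. Nr1d1 (-0.30, adjusted p = 0.171) and Nr1d2 (0.23, adjusted p = 0.172) did not pass, and without 21-day number 5 Nr1d1 did, at -0.40 (adjusted p = 0.0268), with 21.6% of all genes called.

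For Per3 the separation of the 2 number ranges was complete at 21 days, where numbers 1 to 4 ran from 3.29 to 4.03 and numbers 5 to 8 from 4.09 to 4.74. The ranges of Nr1d2 were also apart at 21 days (6.35 to 6.96 against 7.13 to 7.40). For Nr1d1 they were apart at 7 days (7.94 to 8.32 against 6.98 to 7.82), and for Hlf at 14 days (5.50 to 5.76 against 4.79 to 5.49). Among all genes the number ranges were apart for 9.19% at 7 days, 9.19% at 14 days and 18.3% at 21 days, against 1, 1 and 2 of the 10 members. A test for a different effect of the number range at the 3 times called 0 of the 10 members and 0 of all genes, with adjusted p-values of 0.515 for Per3 and 0.588 for Nr1d1. Malat1, a nuclear long non-coding RNA, was higher on numbers 5 to 8 at all 3 times, by 2.26, 2.77 and 2.42, without overlap, and its part in the clock values was not tested. Of the 7 further core genes, Clock (0.41, limma adjusted p = 0.0077) and Rora (0.35, adjusted p = 0.0049) were also called higher on numbers 5 to 8. That test called 10.5% of all genes higher and 22.7% in all. It called 7 of 14 rhythmic outputs, 6 of 9 systemically driven genes, 3 of 10 glucocorticoid-responsive genes and 3 of 10 fasting and feeding genes. The differences for Arntl and Dbp were -0.07 (adjusted p = 0.788) and -0.21 (adjusted p = 0.539).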

How the data were processed

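The authors deposited log2 values made with RMA, which corrects background, normalizes arrays and summarizes probes, in Affymetrix Expression Console 1.1, per the submitters' processing notes. Per the labels' protocols, total RNA was extracted with a miRNeasy kit and labelled with biotin. Of 32624 probe sets 1 lacked values on 33 arrays and was left out, and 19559 had 1 gene symbol in the platform annotation. The brightest per gene gave 17989 genes. Which genome build that annotation follows is not stated in the labels.

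All 42 arrays entered 1 fit of 4 groups in limma 3.58.1 (R 4.3.3), with 2-sided tests and Benjamini-Hochberg adjustment over all genes at 0.05. The comparison of number ranges used the 24 HFD arrays with HFD time as a term, and the test of range by time added their interaction. Correlations used values with group means removed. Their p-values came from 100000 permutations within groups, or from all 40320 pairings within a group of 8, were 2-sided and were adjusted over 11 pairs. Of 12 pairs listed, 1 includes Npas2, which was not analysed here. Fits and correlations were tested on simulated data. Alternatives covered normalization, array weights, a filter on dim genes, probe set choice, number ranges, the acinar marker mean and each array left out.

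All members were named whatever their result, and so was every measured further core clock gene. Of the other lists, called genes were named, and of likenesses the 5 highest and 5 lowest with Arntl and with Dbp. Kupffer cell, endothelial, stellate, bile duct and lymphocyte markers were listed too. Members, lists, pairs and the number ranges were chosen with earlier results of these data known.

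Array numbers were not taken to pair the arrays, since not every same-numbered pair deviated together. The correlation of deviations was above 0.1 for 5 of 24 pairs of a control with an HFD array and for 17 of 24 pairs of HFD arrays, and ran from -0.37 to 0.52 over all 48.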

Additional observations from a re-analysis of the deposited data

Results flagged for a closer look

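In each HFD group of 8, the highest and lowest array of each member was set against its nearest neighbour by Dixon's test at 95%, which by chance marks about 1 group in 20. Of 30 groups tested 4 were marked. Arntl at 14 days was 5.21 on array number 7, with the next at 4.28. Per1 at 7 days was 4.04 on array number 3, with the next at 3.52, and at 21 days 2.73 on array number 6, with the next at 3.14. Hlf at 14 days was 4.79 on array number 6, with the next at 5.44. The 18 controls are too many for this test, so control number 17 was not tested by it.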

How the results depend on the processing

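The counts of members called against control stayed at 0 in the alternatives run except for 2: with array weights 1 member, Per2, was called at 7 days (0.34), and with the HFD arrays numbered 5 to 8 alone 1 member, Per3, was called at 21 days (0.78). Of 540 recomputed member values, 509 kept their direction and side of the threshold, 28 reversed and 3 became called. Of the fits with 1 array left out, these counts hold only the lowest and highest value of each difference. Every reversal concerned a difference of at most 0.38, and the largest reversed value was -0.21. At 7 days Cry1 was -0.015 with quantile normalization, -0.014 with array weights, -0.012 with the acinar marker mean as a covariate, -0.049 with numbers 5 to 8 alone and -0.095 with controls 10 to 18 alone, and with 1 array left out it ran from -0.028 to 0.044. Numbers 5 to 8 alone gave -0.17 for Nr1d1 and -0.12 for Hlf. At 14 days Per1 was -0.0056 with array weights, -0.058 with numbers 5 to 8 and -0.084 with controls 10 to 18, and with 1 array left out it ran from -0.030 to 0.061. Cry1 was -0.0083 with numbers 1 to 4 and -0.047 with controls 10 to 18, and ran from -0.029 to 0.11 with 1 array left out. Per3 was -0.031 with numbers 1 to 4 and Hlf -0.035 with numbers 5 to 8. At 21 days Nr1d2 was -0.014 with array weights, -0.21 with numbers 1 to 4 and -0.0016 with controls 1 to 9, and with 1 array left out it ran from -0.044 to 0.13. Per3 was -0.025 with numbers 1 to 4, and Per1 -0.029 with numbers 5 to 8 and -0.072 with controls 10 to 18. Between number ranges Arntl was 0.015 with array weights, and with 1 array left out Per2 ran from -0.012 to 0.086 and Cry1 from -0.034 to 0.065. The cause of these was not tested.

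With the replicate number as a block, 0 members were called at each HFD time and Nr1d2 at 21 days was -0.045. Of same-numbered pairs, 5 of 24 with a control and 17 of 24 between HFD groups correlated above 0.1, and 5 of all 48 correlated best with their own number, 4 of them between HFD groups. The labels do not say that a number marks anything shared.

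Arntl and Dbp had r = -0.62, -0.74 and -0.83 within the 7-day, 14-day and 21-day groups of 8 arrays, with no r past the threshold after adjustment. By rho the 21-day relation passed (-0.88, adjusted permutation p = 0.0398) and those at 7 and 14 days did not. Arntl and Nr1d1 had 0.025 at 14 days and 0.11 at 21 days, and -0.34 with quantile normalization (adjusted permutation p = 0.0466). Dbp and Hlf had -0.042 at 21 days. Nr1d1 and Nr1d2 had -0.033 within controls without number 17. Leaving out number 17, and single arrays for Arntl and Dbp, were steps chosen after seeing the data. Per1 and Per2 had -0.15 at 7 days, -0.23 at 14 days, -0.056 without the 2 arrays farthest from the median and -0.044 with the acinar mean regressed out.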
